A study of Rattus norvegicus with 30 samples.

Results

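The small heat shock proteins Cryab, Cryaa, Hspb1 and Hspb6 were followed in the left ventricle of rat hearts through ischaemia and through 2 kinds of preconditioning. All probe sets that name one of these 4 genes and no other were taken, which gave 9 of the 8799 probe sets on the array and 4 of 4736 named genes. Hspb1 had 4 probe sets, Cryab 2, Hspb6 2 and Cryaa 1, and 1 further probe set that names Hspb1 together with another gene was left out. Total RNA was measured on 30 Affymetrix arrays, 5 biological replicates in each of 6 groups. CTL were control hearts, ISCH were hearts put through ischaemia, IPC were hearts given ischaemic preconditioning and APC were hearts given preconditioning with an anaesthetic. IPC_TRI and APC_TRI held the triggers of these preconditioning protocols, which in studies of this kind are the preconditioning stimulus without the later test ischaemia. IPC and APC hearts are taken here to have gone through that ischaemia, which their labels do not state. Strain, sex and age of the rats, the anaesthetic, the durations and whether hearts were perfused outside the body are not given in the labels used here.

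Small heat shock proteins are chaperones that need no ATP and hold unfolding proteins in solution until the ATP-driven chaperones refold them. In heart muscle Cryab (alpha B-crystallin) and Hspb1 (the rat counterpart of human HSP27) bind desmin filaments, actin and titin, and under ischaemic stress they are phosphorylated and move to the sarcomere. Hspb6 (HSP20) is a substrate of the cyclic nucleotide-dependent protein kinases in heart and smooth muscle. Cryaa (alpha A-crystallin), the partner of Cryab in the eye lens, is known mainly as a lens protein.

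The arrays gave a signal for each probe set, a brightness on a linear scale that depends on the probes as well as on the transcript, so signals of different probe sets are not read here as relative amounts of transcript. Both Cryab probe sets lay above 99% of all probe sets in mean signal, X60351cds_s_at at the 99.6th and M55534mRNA_s_at at the 99.5th percentile. Among Hspb1 probe sets, rc_AI176658_s_at stood at the 99.3rd, M86389cds_s_at at the 99.2nd, rc_AA998683_g_at at the 99.0th and rc_AA998683_at at the 90.8th percentile. The Hspb6 probe sets D29960_at and rc_AI103838_g_at stood at the 99.3rd and the 98th, and the Cryaa probe set U47921_s_at at the 79.0th. All 9 passed the filter, which took out the dimmest 40% of the array. The brightest probe set of a gene, by its mean, is called its main one (X60351cds_s_at, U47921_s_at, rc_AI176658_s_at and D29960_at). In the rat assembly GRCr8 of RefSeq, Cryab lies on chromosome 8 at 59989885 to 59995532, Hspb1 on chromosome 12 at 26430640 to 26432301, Hspb6 on chromosome 1 at 94934372 to 94936516 and Cryaa on chromosome 20 at 9784872 to 9788656. The span of Cryab overlaps that of Hspb2, another small heat shock protein gene, at 59989640 to 59991215. The positions of the probes within the genes were not used here.

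Heat shock genes are classically switched on by heat shock factor 1, which binds inverted repeats of the letters GAA. RefSeq promoter windows (GRCr8, 250 bases before to 50 after the start site) were at hand for Hspb1, Hspb6 and Cryaa. The windows of Hspb1 and Hspb6 are shown because both hold such repeats, set in capitals and written 5′ to 3′ along the gene. Hspb1 is read from chr12:26432252-26432551 on the minus strand and Hspb6 from chr1:94934122-94934421 on the plus strand.
Hspb1: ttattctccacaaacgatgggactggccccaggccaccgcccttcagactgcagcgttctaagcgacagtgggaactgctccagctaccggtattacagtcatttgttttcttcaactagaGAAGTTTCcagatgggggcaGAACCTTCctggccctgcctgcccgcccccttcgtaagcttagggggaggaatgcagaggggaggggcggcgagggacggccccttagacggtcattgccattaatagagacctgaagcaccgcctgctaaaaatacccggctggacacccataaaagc
Hspb6: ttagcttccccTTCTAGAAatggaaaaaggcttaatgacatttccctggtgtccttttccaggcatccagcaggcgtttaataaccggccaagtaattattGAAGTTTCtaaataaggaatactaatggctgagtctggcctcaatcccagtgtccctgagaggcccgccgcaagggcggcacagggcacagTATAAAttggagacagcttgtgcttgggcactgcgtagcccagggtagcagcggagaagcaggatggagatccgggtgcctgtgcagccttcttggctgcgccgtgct
The motifs searched, on both strands, were GAANNTTC and TTCNNGAA, the 2 ways in which neighbouring repeats can face each other, and TATAAA, the TATA box. Each of the first 2 reads the same on both strands, and the 3 were counted separately. In Hspb1, GAANNTTC matched as GAAGTTTC at -129 to -122 and as GAACCTTC at -109 to -102, counted from the start site. In Hspb6, TTCNNGAA matched at -239 to -232 and GAANNTTC, again as GAAGTTTC, at -149 to -142, with TATAAA at -58 to -53. The Cryaa window held no match to any of the 3. Among 27457 rat promoter windows of this length, 8.34% held GAANNTTC, 8.49% TTCNNGAA, 15.4% one or the other and 14.3% TATAAA. Of 26 windows of the other chaperone genes on the array, 13 (50.0%) held GAANNTTC or TTCNNGAA. A match is a run of letters and not a measured binding site.

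Signals were normalized between arrays on the log2 scale and compared with limma, and a probe set was called where its adjusted p, over the 5244 probe sets tested, was under 0.05. Changes are log2 differences ± standard error (SE) with 5 arrays a group, on the log2(signal + 16) scale, which understates changes of dim probe sets; the number of arrays limits their precision. The brightest 1% of probe sets, which hold 5 of the 9 members, took 30.5 ± 3.22% of the signal in CTL (SD, n = 5), 37.3 ± 4.34% in ISCH (exact permutation p = 0.016, adjusted over 20 tests 0.053), 37.5 ± 2.34% in IPC_TRI (p = 0.0079, adjusted 0.053) and 34.8 ± 1.24% in APC_TRI (p = 0.040, adjusted 0.099). Normalization between arrays took that shift out of the bright members and the deposited scale kept it, so member results are given on both scales where they differ. Centring each array on its median moved the median change of all probe sets, to -0.19 in IPC_TRI against CTL and 0.19 in IPC against IPC_TRI, and values with median centring below are to be read against that shift. The bacterial spike signal was also higher in ISCH (12.0 ± 0.61 log2) than in CTL (10.8 ± 0.69, exact p = 0.016, adjusted 0.053), and the beta-actin 3′ to 5′ ratio was lower in IPC_TRI (-0.46 against 0.08 log2, exact p = 0.016, adjusted 0.053) and in APC_TRI (-0.36, exact p = 0.040, adjusted 0.099). The Gapdh 3′ to 5′ ratio moved the other way, from -0.061 log2 in CTL to 0.13 in IPC_TRI and 0.19 in APC_TRI (each exact p = 0.0079, adjusted 0.053). The smallest p that 5 against 5 arrays allow is 0.0079. The IPC_TRI arrays were the least like their own group, with mean correlations of 0.872 for replicate 5 and 0.893 to 0.913 for the other 4. ISCH replicate 1 had the lowest in ISCH (0.918).

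**Figure D1:**
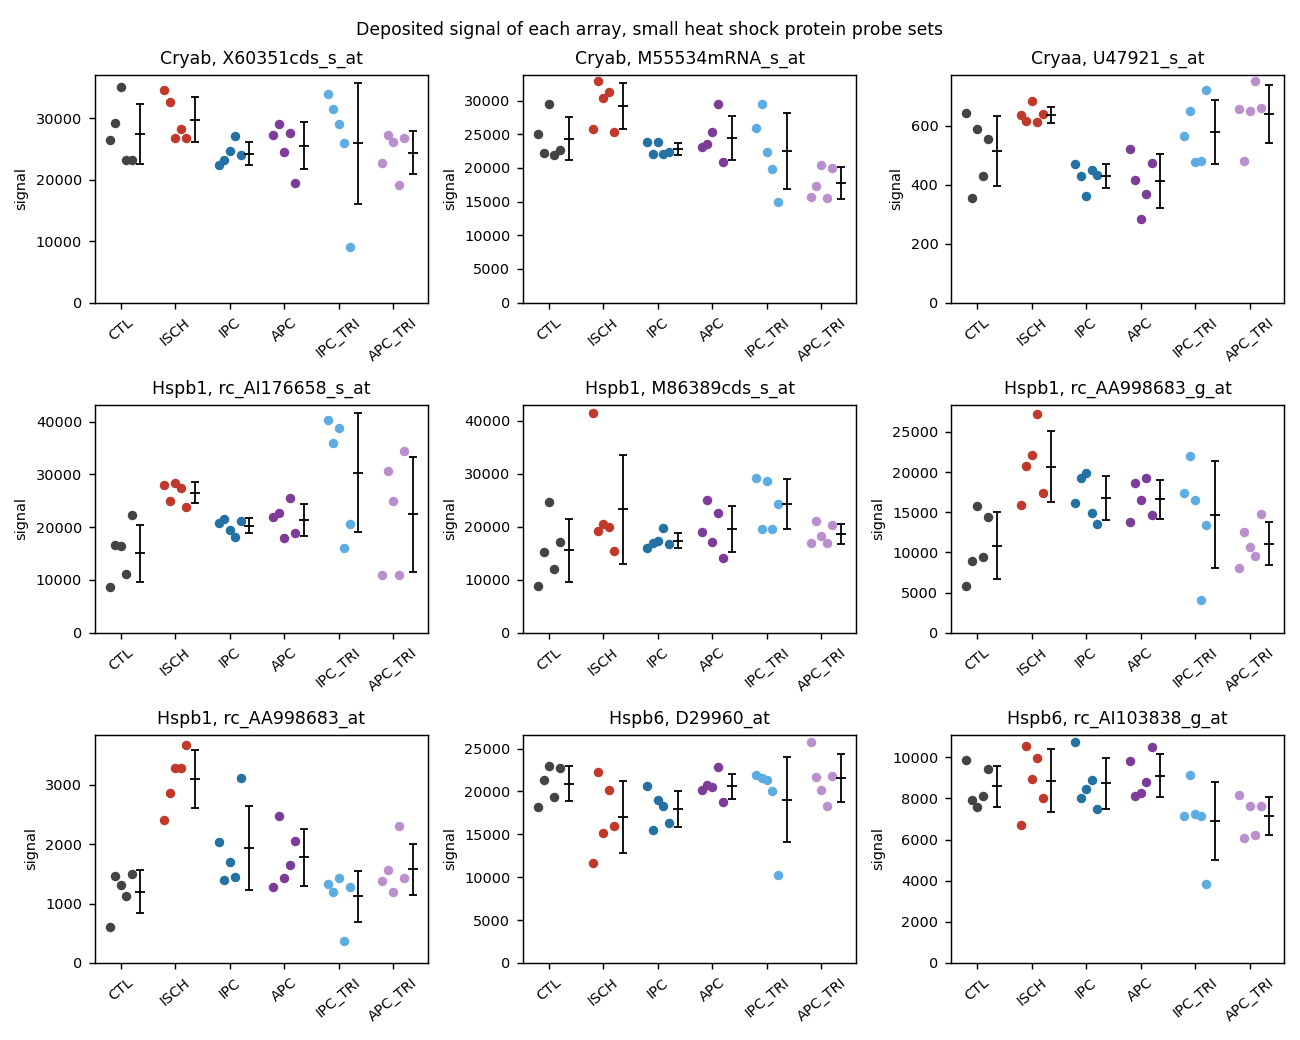
Deposited signal (vertical axes, each from 0) of the 9 small heat shock protein probe sets on each of the 30 arrays, by group; points are arrays, and the cross and bar beside them are the mean and SD of 5 arrays. The ISCH arrays lie above all CTL arrays for Hspb1 rc_AA998683_at, the APC_TRI arrays lie below all CTL arrays for Cryab M55534mRNA_s_at, and IPC_TRI has single arrays far below the others for Cryab X60351cds_s_at and Hspb6 D29960_at.

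The small heat shock protein probe sets did not change in 1 direction. Against CTL, ISCH had 1 member probe set higher (Hspb1) and 1 lower (Hspb6) of 9, where 8.77% of all probe sets were called (3.95% higher, 4.82% lower), and the median change of the 9 was 0.25 against -0.01 over all tested. In IPC and in APC against the same CTL arrays, 0 of 9 were called at this threshold, with 3.89% and 3.66% of all probe sets called; 3 member probe sets in IPC (rc_AA998683_at and rc_AA998683_g_at of Hspb1, D29960_at of Hspb6) and 2 in APC (rc_AA998683_g_at and rc_AI176658_s_at of Hspb1) had an unadjusted p under 0.05, as had 591 and 562 of all 5244. IPC_TRI had 3 of 9 lower and 0 higher, with 16.6% of all probe sets called (10.1% lower, 6.46% higher). APC_TRI had 1 of 9 lower, with 8.64% called (4.92% lower, 3.72% higher). All 5 comparisons share the CTL arrays. In the F test of any difference among the 6 groups, 5 of 9 passed, with 31.6% of all probe sets called. These were M55534mRNA_s_at of Cryab (adjusted p = 6.5e-05), U47921_s_at of Cryaa (0.0094), rc_AA998683_at (0.0012) and rc_AA998683_g_at (0.049) of Hspb1, and D29960_at of Hspb6 (0.014).

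**Figure D2:**
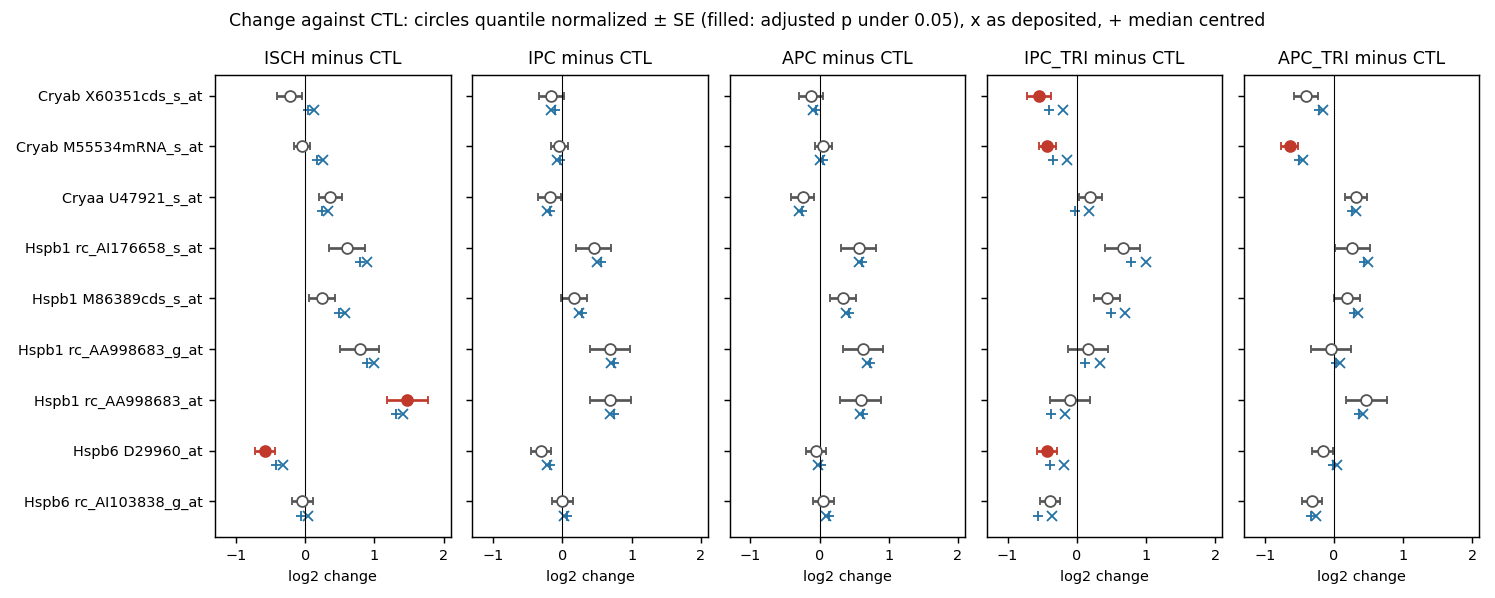
Log2 change of each member probe set against CTL (horizontal axes, 1 panel per group); circles are normalized values ± SE, filled where the adjusted p was under 0.05, crosses are the values as deposited and plus signs the values centred on each array's median. The filled circles are Hspb1 rc_AA998683_at and Hspb6 D29960_at in ISCH, both Cryab probe sets and Hspb6 D29960_at in IPC_TRI, and Cryab M55534mRNA_s_at in APC_TRI; for the filled circles of Cryab and Hspb6 the crosses lie nearer to 0.

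Cryab, the most abundant small heat shock protein of heart muscle, was lower in the trigger groups than in control hearts on the normalized scale, by both probe sets in IPC_TRI and by 1 of them in APC_TRI. The CTL signals of M55534mRNA_s_at were 25114, 22294, 29580.0, 21950.4 and 22681, and the APC_TRI signals were 15636, 17262, 20419.7, 15558 and 20049.7. Every APC_TRI array lay below every CTL array, before and after normalization, as was so for 13.3% of all probe sets after it. The change was -0.64 ± 0.12 (limma, adjusted p = 0.0011). On the deposited scale it was -0.45, at the threshold (adjusted p = 0.050), and with median centring -0.51 (adjusted p = 0.073). In IPC_TRI the signals were 25974, 29496, 22375, 19791 and 14957, overlapping CTL, and the normalized change was -0.42 ± 0.12 (adjusted p = 0.015). That call ended on the deposited scale (-0.14), with median centring (-0.35), and without IPC_TRI replicate 5 (-0.35). Fewer cells that make Cryab and less Cryab RNA per cell cannot be told apart in bulk tissue, here or for any gene below.

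The other Cryab probe set gave smaller or less even differences. X60351cds_s_at had signals of 26397, 29218, 34982, 23229 and 23165 in CTL and of 33954, 31484, 28981, 25909 and 9084 in IPC_TRI. Replicate 5 of IPC_TRI lay far below its group and the other arrays overlapped CTL. Its normalized change in IPC_TRI was -0.55 ± 0.17 (limma, adjusted p = 0.031), but -0.27 without that array, -0.20 on the deposited scale and -0.41 with median centring, and it passed in none of the last 3. The call also ended when CTL replicate 1, 2, 3 or 4 was left out (-0.56 to -0.51). In APC_TRI the signals were 22625, 27319, 26170, 19167 and 26691, overlapping CTL as deposited. The normalized change of -0.41 ± 0.17 did not pass (adjusted p = 0.14), although the normalized arrays did not overlap those of CTL (13.3% of all probe sets). Over the alternative settings it ran from -0.53 to -0.16 and passed in 4 of 23. The mean over both probe sets, given for normalized values only, was lower in APC_TRI (-0.53 ± 0.13, adjusted p = 0.012) and in IPC_TRI (-0.49 ± 0.13, adjusted p = 0.012).

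Ischaemia without preconditioning left Cryab without a called difference. The ISCH signals were 25795, 32985, 30344, 31288 and 25346 for M55534mRNA_s_at, and 34482, 32671, 26757, 28184 and 26682 for X60351cds_s_at. For both probe sets they overlapped those of CTL. The normalized changes were -0.04 ± 0.12 (limma, adjusted p = 0.89) and -0.23 ± 0.17 (adjusted p = 0.51), and they turned to 0.26 and 0.13 on the deposited scale and to 0.17 and 0.03 with median centring. In IPC the signals ran from 22072 to 23919 and from 22297 to 27085, and in APC from 20861 to 29474 and from 19482 to 29016. None of these 4 comparisons with CTL passed (-0.16 to 0.06, lowest adjusted p = 0.87).

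Cryab was higher in APC than in APC_TRI by 1 of its 2 probe sets. Here 2 of 9 member probe sets were called, 1 higher and 1 lower, where 17.7% of all probe sets were (9.82% higher, 7.88% lower). Of the 9, 8 lay above 0, with a median of 0.28 against 0.01 over all tested. Hspb1 rc_AA998683_g_at (0.67 ± 0.29, limma, adjusted p = 0.10) and Hspb6 rc_AI103838_g_at (0.38 ± 0.15, adjusted p = 0.082) were not called. Their normalized APC arrays all lay above those of APC_TRI. The APC signals of M55534mRNA_s_at were 23159, 23492, 25319, 29474 and 20861, all above the highest APC_TRI signal of 20419.7, with no overlap after normalization either (16.6% of all probe sets). The difference was 0.70 ± 0.12 (limma, adjusted p = 8.6e-05). It was 0.46 on the deposited scale (adjusted p = 0.027) and 0.56 with median centring (adjusted p = 0.030). X60351cds_s_at had 0.28 ± 0.17 (adjusted p = 0.28), and its signals overlapped as deposited (19482 to 29016 in APC, 19167 to 27319 in APC_TRI). Over the alternative settings its difference ran from 0.064 to 0.49 and passed in 2 of 23. The mean over both probe sets, given for normalized values only, was 0.49 (adjusted p = 0.0088). Between IPC and IPC_TRI, where 2 of 9 were called, both higher, against 23.4% of all (14% higher, 9.46% lower), M55534mRNA_s_at was higher by 0.38 ± 0.12 (adjusted p = 0.020). That call ended without IPC replicate 1 (0.32) or IPC_TRI replicate 5 (0.31), on the deposited scale (0.06) and with median centring (0.32).

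Cryaa ran the other way between APC and its trigger. The signals of U47921_s_at were 520.2, 415.6, 284.8, 367.2 and 472.9 in APC and 657.0, 479.7, 648.4, 749.7 and 658.6 in APC_TRI. They overlapped through 1 APC_TRI array, replicate 2. The difference was -0.57 ± 0.16 (limma, adjusted p = 0.014), with -0.63 on the deposited scale and -0.52 with median centring, both past the threshold, and it ended without APC replicate 3 (-0.44). Between IPC and IPC_TRI it was -0.38 ± 0.16 (adjusted p = 0.086).

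The Cryaa signals of ISCH were highest in mean after normalization, while on the deposited scale the median was 657.0 in APC_TRI and 634.1 in ISCH. Those of ISCH were 634.1, 616.8, 681.9, 611.9 and 638.3, against 643.8, 353.5, 588.2, 430.3 and 552.8 in CTL, which they overlapped. The change from CTL did not pass (0.36 ± 0.16, limma, adjusted p = 0.18). In IPC the signals were 469.6, 428.9, 360.7, 447.9 and 434.0. Neither the IPC nor the APC arrays overlapped those of ISCH, as was so for 2.36% and 3.57% of all probe sets after normalization. The differences from ISCH were -0.55 ± 0.16 for IPC (adjusted p = 0.18) and -0.61 ± 0.16 for APC (adjusted p = 0.079), neither past the threshold. In IPC_TRI the signals ran from 476.5 to 722.0. In rank of normalized mean, the order was ISCH, APC_TRI, IPC_TRI, CTL, IPC and APC, and neighbours in that order overlapped throughout.

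Other genes of the lens were read beside Cryaa. Of 20 lens genes listed, 10 were on the array and 7 were tested. Their summed deposited signal was between 1198 and 1819 on every array. Mip, the lens water channel, had a signal of 314.0 ± 40.2 in CTL (SD, n = 5), and Crybb3, a beta-crystallin, 308.2 ± 88.0. None of the 7 passed in ISCH against CTL, with a median change of 0.19, and the genes that passed elsewhere are named after their values were seen. Lim2, a lens membrane protein, fell in IPC_TRI (-0.94 ± 0.26, limma, adjusted p = 0.015) and was higher in IPC than in IPC_TRI (0.90 ± 0.26, adjusted p = 0.014), as was Crybb1, a beta-crystallin (0.87 ± 0.32, adjusted p = 0.045). Crygd, a gamma-crystallin, rose in APC (1.60 ± 0.46, adjusted p = 0.043), where Cryaa had -0.25. On the deposited scale 1 lens gene fell in IPC_TRI and 0 passed in the other comparisons named here. The gene that the Cryaa probes detect was not tested apart from the probe table's name, and cross-hybridization to related crystallin transcripts was not tested.

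Hspb1 rose in ischaemia by 1 of its 4 probe sets. The signals of rc_AA998683_at were 607.5, 1457, 1306, 1129.9 and 1498 in CTL and 2407, 2853, 3288, 3283 and 3673 in ISCH. Every ISCH array lay above every CTL array, as was so, in either direction, for 10.2% of all probe sets. The change was 1.48 ± 0.29 (limma, adjusted p = 9.2e-04), from a mean signal of 1199.5 ± 361 to 3101 ± 484 (SD, n = 5). It was 1.41 on the deposited scale and 1.32 with median centring, and it passed without any one array (1.25 to 1.57). Adding the bacterial spike signal, itself higher in ISCH, to the fit gave 0.95, which did not pass (adjusted p = 0.18).

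The other 3 Hspb1 probe sets had values above 0 in ischaemia without being called. The signals of the main probe set rc_AI176658_s_at were 8673, 16529.8, 16449, 11156 and 22374 in CTL and 27954, 24909, 28295, 27434 and 23843 in ISCH. On the deposited scale no arrays overlapped, and the change there was 0.89 (limma, adjusted p = 0.037), while after normalization it was 0.60 ± 0.26 (adjusted p = 0.15) with overlap. The signals of rc_AA998683_g_at were 5777, 8947, 15717, 9367 and 14441 in CTL and 15918, 20756, 22158, 27215 and 17349 in ISCH. Here too the deposited values did not overlap, with a change of 0.99 (adjusted p = 0.027) that became 0.79 ± 0.29 (adjusted p = 0.087) after normalization. The share of all probe sets without overlap is given here for normalized values only. The deposited scale also keeps the larger share of signal in the brightest 1% in ISCH (37.3% against 30.5% in CTL). M86389cds_s_at had 0.25 ± 0.19 (adjusted p = 0.50), and its ISCH replicate 1, at 41383, was far above the other 4 (15480.0 to 20449). The mean over the 4 probe sets rose by 0.78 ± 0.21 (adjusted p = 0.013).

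After preconditioning, no Hspb1 probe set was called against control or against ischaemia. By normalized means 3 of the 4 lay between CTL and ISCH in both IPC and APC, and M86389cds_s_at did so in IPC but lay above ISCH in APC (0.09 ± 0.19, limma, adjusted p = 0.90). In IPC the signals of rc_AA998683_at were 2035, 1403, 1693, 1450.4 and 3120.2, and in APC 1275, 2473, 1437, 1646 and 2049.5. Both groups overlapped CTL and, through 1 array each, the deposited range of ISCH, although after normalization APC no longer overlapped ISCH (3.57% of all probe sets). The changes against CTL were 0.69 ± 0.29 in IPC (limma, adjusted p = 0.30) and 0.59 ± 0.29 in APC (adjusted p = 0.48). Against ISCH they were -0.78 ± 0.29 in IPC (adjusted p = 0.27) and -0.88 ± 0.29 in APC (adjusted p = 0.20). The other 3 probe sets changed from CTL by 0.16 to 0.69 in IPC and by 0.34 to 0.62 in APC, none past the threshold.

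The trigger groups split the Hspb1 probe sets. In IPC_TRI the signals of rc_AA998683_at were 1326, 1195, 1429.5, 371.0 and 1284, while those of rc_AI176658_s_at were 40354, 35839, 38844, 16104 and 20510.0. The first overlapped CTL with replicate 4 far below, and 3 of 5 arrays of the second were, as deposited, above every CTL and ISCH array. After normalization replicate 2 of IPC_TRI (14.63 log2) no longer lay above CTL replicate 5 (14.63) or ISCH replicate 3 (14.67). The normalized changes against CTL were -0.10 ± 0.29 (limma, adjusted p = 0.84) and 0.66 ± 0.26 (adjusted p = 0.072), and on the deposited scale the second was 0.99 and passed (adjusted p = 0.015). M86389cds_s_at had 0.44 ± 0.19 (adjusted p = 0.10), which on the deposited scale was 0.70 and passed (adjusted p = 0.030). In APC_TRI the main probe set fell into separate values, 11034, 30681, 24918, 10956 and 34444, and its change was 0.27 ± 0.26 (adjusted p = 0.54). From IPC_TRI to IPC, rc_AA998683_at was higher by 0.79 ± 0.29 (adjusted p = 0.047), a call that ended without IPC replicate 1, 3 or 5 (0.60 to 0.83) or IPC_TRI replicate 4 (0.43).

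**Figure D3:**
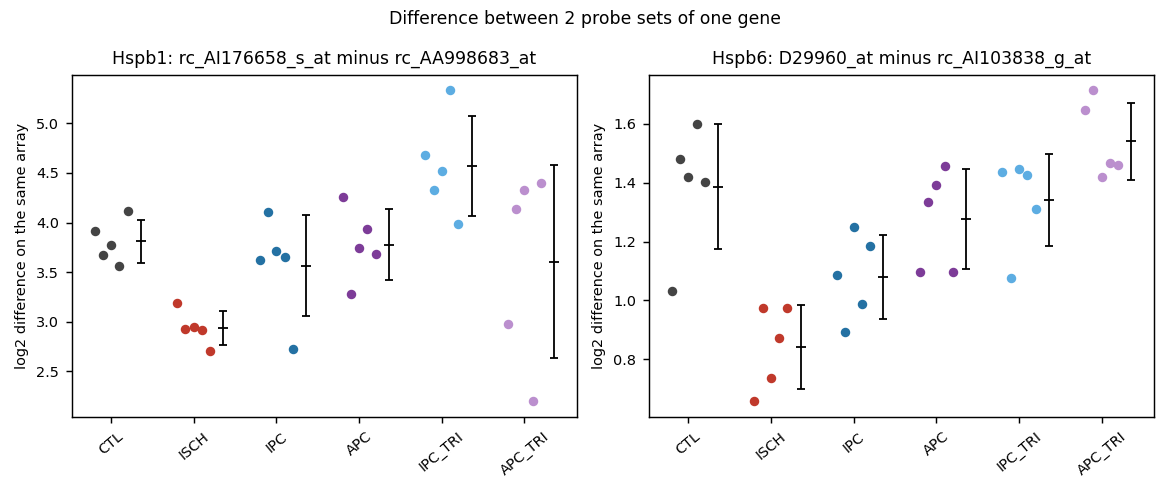
Log2 difference between a pair of probe sets of the same gene on the same array (vertical axes), for Hspb1 on the left and Hspb6 on the right; points are arrays and bars the mean ± SD of 5. In ISCH all 5 arrays lie below the CTL range in both panels, and for Hspb1 4 of 5 IPC_TRI arrays lie above it.

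Differences between probe sets of one gene on the same array were compared after the values had been seen, and none passed adjustment. The log2 difference between rc_AI176658_s_at and rc_AA998683_at on the same array was 3.81 ± 0.22 in CTL, 2.94 ± 0.17 in ISCH and 4.57 ± 0.50 in IPC_TRI (SD, n = 5). All 5 ISCH arrays lay below the CTL range (2-sided exact permutation p = 0.0079) and 4 of 5 IPC_TRI arrays above it (exact p = 0.016). The Hspb6 pair, D29960_at and rc_AI103838_g_at, differed by 1.39 ± 0.21 in CTL and 0.84 ± 0.14 in ISCH, where again all 5 arrays lay below the CTL range (exact p = 0.0079). Over the 40 such tests of 8 pairs, 7 had an unadjusted p under 0.05 and 0 an adjusted one, the lowest being 0.11. With 0.0079 as the smallest p that 5 against 5 arrays allow, a lone test could not pass adjustment over 40 tests. The adjusted values therefore do not show that the probe sets of a gene moved alike. Across the 30 arrays the Pearson correlation was 0.62 between the Cryab probe sets, 0.56 between those of Hspb6, and from 0.19 to 0.68 within Hspb1; these arrays share groups and normalization, and the values are descriptions.

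Hspb6 was lower in ischaemia by its main probe set after normalization. The signals of D29960_at were 18236, 21340.3, 22998, 19318 and 22714 in CTL and 11607, 22228, 15208, 20179 and 15979 in ISCH. Of the ISCH arrays, 3 lay below all of CTL and 2 within it, while after normalization none overlapped (10.2% of all probe sets). The change was -0.58 ± 0.15 (limma, adjusted p = 0.011), kept past the threshold without any one array (-0.66 to -0.47). It was -0.33 on the deposited scale (adjusted p = 0.27) and -0.42 with median centring (adjusted p = 0.28), neither past the threshold. The other Hspb6 probe set, rc_AI103838_g_at, had signals of 7585 to 9842 in CTL and 6719 to 10553 in ISCH and a change of -0.04 ± 0.15 (adjusted p = 0.92), so the mean over both did not pass (-0.31 ± 0.14, adjusted p = 0.19).

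In IPC_TRI both Hspb6 probe sets pointed down. The signals of D29960_at were 21918, 21583, 21384, 20018 and 10299, within the CTL range except for replicate 5, although no arrays overlapped after normalization (9.48% of all probe sets). Its normalized change was -0.43 ± 0.15 (limma, adjusted p = 0.043), but -0.28 without replicate 5, -0.18 on the deposited scale and -0.39 with median centring, where it did not pass. Nor did it without CTL replicate 1, 2, 4 or 5 or IPC_TRI replicate 2 (-0.46 to -0.38). The signals of rc_AI103838_g_at were 7136, 9129.6, 7243, 7151 and 3835, with a change of -0.39 ± 0.15 (adjusted p = 0.073). In IPC the signals of D29960_at were 20582, 15454, 19037, 18356 and 16331, in APC 20188, 20747, 20512, 22842 and 18766, and in APC_TRI 25808, 21715, 20197, 18268 and 21749. None of these groups passed against CTL (-0.31 ± 0.15 in IPC, -0.05 ± 0.15 in APC and -0.16 ± 0.15 in APC_TRI, lowest adjusted p = 0.43). The normalized APC arrays all lay above those of ISCH (no overlap in 3.57% of all probe sets), with a difference of 0.53 ± 0.15 (adjusted p = 0.11).

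If IPC and APC hearts went through the ischaemia of ISCH, IPC and APC against ISCH ask whether preconditioning altered the small heat shock proteins during it. None of the 9 member probe sets was called in either comparison, where 0.172% and 0.267% of all probe sets were. At an unadjusted p under 0.05, 2 of 9 differed in IPC (Cryaa U47921_s_at and Hspb1 rc_AA998683_at, both lower) and 3 of 9 in APC (the same 2 probe sets lower and Hspb6 D29960_at higher), beside 568 and 643 of all 5244 probe sets at that threshold. The kinds of preconditioning did not differ in any member, with 0 of 9 called between IPC and APC (0% of all probe sets, 137 at an unadjusted p under 0.05) and 0 of 9 between IPC_TRI and APC_TRI (0.439%). The largest difference between IPC and APC was -0.25 ± 0.15, for Hspb6 D29960_at. A p above the threshold does not show that the groups were alike.

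The difference between a preconditioned group and its trigger was set against the difference between ISCH and CTL as an interaction. For IPC the interaction was past the threshold in 2 of 9 member probe sets, with 13.6% of all probe sets called (8.45% higher, 5.17% lower). Hspb6 D29960_at had 0.71 ± 0.21 (limma, adjusted p = 0.025) and Cryaa -0.75 ± 0.23 (adjusted p = 0.030). For APC 4 of 9 were called, with 8.22% of all (4.81% higher, 3.41% lower). These were Hspb6 D29960_at (0.69 ± 0.21, adjusted p = 0.037), Cryab M55534mRNA_s_at (0.74 ± 0.17, adjusted p = 0.0065), Hspb1 rc_AA998683_at (-1.35 ± 0.41, adjusted p = 0.040) and Cryaa (-0.93 ± 0.23, adjusted p = 0.012). Both interactions use the same CTL and ISCH arrays. On the deposited scale Cryaa kept its calls (-0.74 and -0.96) and so did rc_AA998683_at (-1.24, adjusted p = 0.047), while Hspb6 (0.29 and 0.27) and Cryab (0.20) lost theirs. For IPC, Hspb1 rc_AI176658_s_at and M86389cds_s_at passed on that scale (-1.38 and -1.04, limma, adjusted p = 0.018 and 0.025). After normalization they had not (-0.81 and -0.52, adjusted p = 0.13 and 0.18). With median centring only Cryaa in APC passed (-0.76). The rc_AA998683_at call ended without any 1 of 12 of the 20 arrays used (-1.40 to -1.13), that of Hspb6 in APC without any 1 of 10 (0.58 to 0.70) and in IPC without ISCH replicate 1 (0.60) or IPC replicate 1 (0.62), and that of Cryaa in IPC without CTL replicate 2 or 4, IPC replicate 3 or IPC_TRI replicate 2 (-0.70 to -0.64). The 2 interactions differed from each other in 0 of 9 members (0.0953% of all probe sets).

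**Figure D4:**
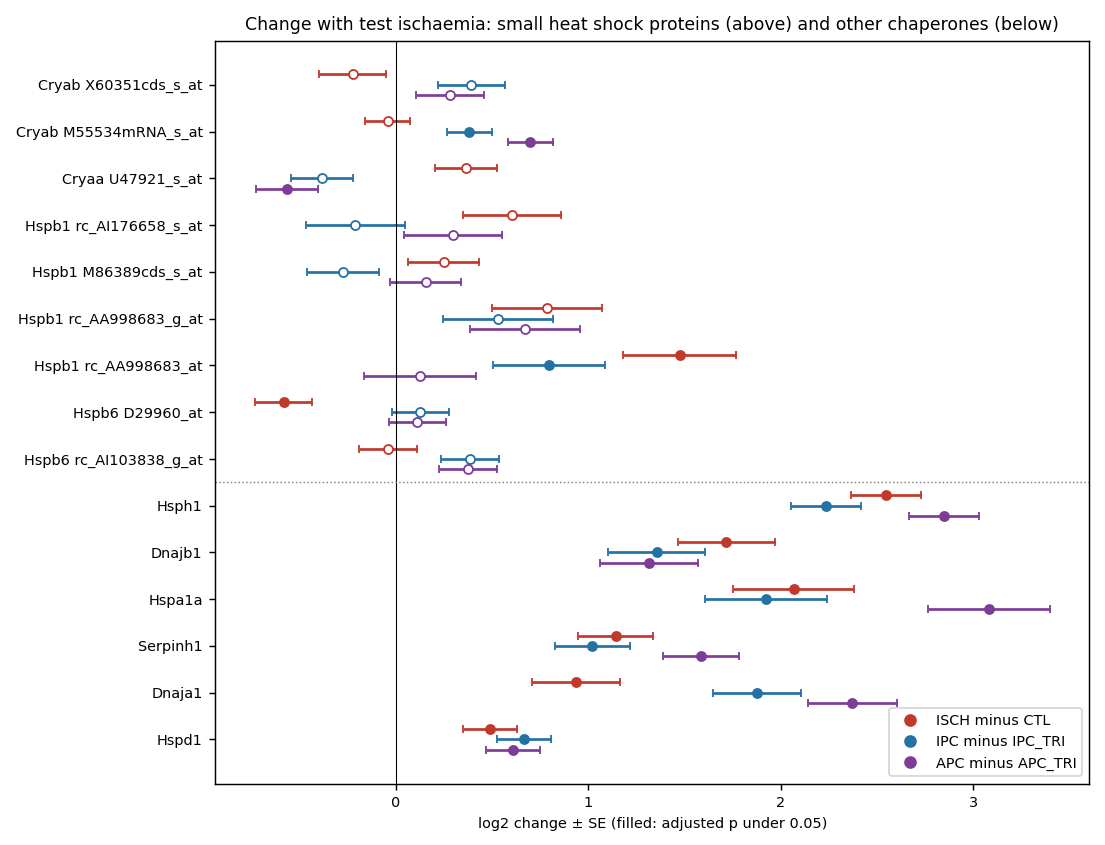
Log2 change ± SE (horizontal axis) of the 9 small heat shock protein probe sets, above the dotted line, and of 6 other chaperone genes, below it, in ISCH against CTL, IPC against IPC_TRI and APC against APC_TRI; filled points had an adjusted p under 0.05. The 6 other chaperones were picked by the smallest p in ISCH against CTL, so their filled ISCH points follow from that choice. They are also filled in IPC against IPC_TRI and APC against APC_TRI, and their changes run from 0.49 to 3.08. All 9 member probe sets are shown without such a choice. Most member points are open and lie between -0.58 and 0.79, with 1.48 for Hspb1 rc_AA998683_at in ISCH.

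Other chaperones were read in the same comparisons, and the difference between their share of calls and that of the members was not tested. Of 58 chaperone and heat shock genes listed, 30 were on the array and 27 were tested. In ISCH against CTL 7 rose and 0 fell, where 8.77% of all probe sets were called. The median change of the list was 0.14 (-0.01 over all tested, and -0.01 for the list with median centring). The 6 with the smallest p were Hsph1, a large nucleotide exchange factor of the HSP70 family (2.55 ± 0.18, limma, adjusted p = 1.5e-11), Dnajb1, an HSP40 co-chaperone (1.72 ± 0.25), Hspa1a, the inducible HSP70 (2.07 ± 0.32), Serpinh1, the collagen chaperone (1.14 ± 0.20), Dnaja1, another HSP40 (0.94 ± 0.23), and Hspd1, the mitochondrial HSP60 (0.49 ± 0.14). In IPC against CTL 9 rose, in APC 6, and 0 fell in either, where 3.89% and 3.66% of all probe sets were called. In IPC_TRI 2 rose and 3 fell (16.6% of all called), and in APC_TRI 1 rose and 3 fell (8.64%), among them Hspa1a (-1.25 ± 0.32) and Dnaja1 (-1.05 ± 0.23). Between IPC and IPC_TRI 12 were higher and 2 lower (median 0.57, 23.4% of all called). Between APC and APC_TRI 12 were higher and 0 lower (median 0.40, 17.7% of all called). Against ISCH, 0 members of the list differed in IPC or APC, where 0.172% and 0.267% of all probe sets were called. Hspb2, whose gene overlaps Cryab, did not pass in any pair of groups (-0.16 to 0.23).

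The genes for kinases and phosphatases that act on small heat shock proteins, and for their filament partners, are named here where they passed, after their values had been seen. Of 13 kinase and phosphatase genes tested, 0 rose and 1 fell in ISCH, namely Prkar1a, a regulatory subunit of protein kinase A (-0.52, limma, adjusted p = 0.0050). Mapkapk2, the kinase of Hspb1 downstream of p38, rose in both trigger groups (0.70 in IPC_TRI, adjusted p = 0.0031, and 0.87 in APC_TRI, adjusted p = 6.2e-04). Of 10 filament and cytoskeleton genes, 3 rose in ISCH, the actins Actb (1.00, adjusted p = 6.1e-04) and Actg1 (0.79, adjusted p = 0.021) and the intermediate filament Vim (0.96, adjusted p = 0.0053), and 1 fell, the muscle filament Des (-0.52, adjusted p = 0.013).

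Markers of other cell types were read beside the members. Of 13 cardiomyocyte markers tested, 3 fell and 0 rose in ISCH, with a median of -0.17 that turned to 0.35 on the deposited scale and 0.26 with median centring, and their summed signal ran from 294257 to 477539 in CTL, 393135 to 746900 in ISCH, 497282 to 687947 in IPC_TRI and 417069 to 543928 in APC_TRI. Of 6 fibroblast markers, 4 rose in ISCH (median 0.94), and the summed signal of the 7 on the array ran from 21346 to 27356 in CTL and from 34120 to 66677 in ISCH. Smooth muscle markers, the other tissue rich in Hspb6, had 1 of 7 lower in ISCH (Des, also listed above as a muscle filament) and 0 called in either trigger group. The rest of the list was not called in ISCH. Tagln had 0.96 ± 0.35 (limma, adjusted p = 0.083), Acta2 0.63, Myh11 0.63, Cnn1 -0.21, Myl9 -0.18 and Actg2 -0.08.

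Of 8 endothelial markers, 2 rose and 2 fell in ISCH. Thbd, thrombomodulin, rose (0.66) and so did Egfl7 (1.68), while the leukocyte adhesion molecules Selp (-1.94) and Sele (-2.22) fell (limma, all adjusted p at most 0.0077). In IPC_TRI Pecam1, an endothelial adhesion molecule, fell (-0.62, adjusted p = 0.034), and in APC_TRI it was not called (-0.27). No other endothelial marker was called in either trigger group. Of 4 myeloid markers, Cd14, the endotoxin co-receptor, fell in ISCH (-0.88, adjusted p = 6.2e-04), IPC and APC and was not called in either trigger group, and Lyz2, lysozyme, had 0.78 in ISCH (adjusted p = 0.088). Of 6 skeletal muscle markers, 0 passed in ISCH. Casq1, skeletal calsequestrin, rose in IPC_TRI (1.10, adjusted p = 0.0099) and APC_TRI (1.00, adjusted p = 0.028) and Atp2a1, the calcium pump of fast muscle, in IPC_TRI (0.97, adjusted p = 0.032), while the brightest of the list, Acta1 (0.05 and 0.02) and Myh1 (0.05 and -0.28), did not pass in either. In the trigger groups 1 of 6 fibroblast markers was called, Dcn, a matrix proteoglycan. It rose (0.93 in IPC_TRI, adjusted p = 5.1e-04, and 0.85 in APC_TRI, adjusted p = 0.0019). The rest of that list was not called in IPC_TRI or APC_TRI. Col3a1 had -0.65 and -1.005 (adjusted p = 0.0503 in APC_TRI), Lum -0.55 and -0.42, and Col1a1, a collagen chain, -0.46 and -0.37. Col1a2 had 0.51 and 0.34, and Pdgfra -0.078 and 0.038. Dcn also rose in ISCH (0.65, adjusted p = 0.012), as did Col1a1 (1.31, adjusted p = 0.025). Tpm1, tropomyosin, rose in IPC_TRI (0.44, adjusted p = 0.0037) and APC_TRI (0.38, adjusted p = 0.016), and Actc1, cardiac actin, passed in neither (0.07 and 0.13). Myl9, a smooth muscle myosin light chain, had -1.05 in IPC_TRI (adjusted p = 0.090). Prkaca, the catalytic subunit of protein kinase A, fell in IPC_TRI (-0.44, adjusted p = 0.015). Egfl7, Sele, Pecam1, Casq1 and Atp2a1 are named after their values were seen. No marker on these lists had a signal of 0 on any array. Their part in the changes of Hspb1, Hspb6 and Cryab was not tested.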

How the data were processed

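Left ventricular RNA of 30 rats' hearts was hybridised by the maker's standard procedures, per the labels. The authors deposited 1 linear intensity for each probe set and array. Their 2% trimmed means lay between 500.8 and 501 on all arrays, so the authors had scaled them, and medians of 114.6 to 189.2 show that they were not quantile normalized. The sources used here do not give the software behind them. Among 8799 probe sets, 59 controls were left out of the tests, 7006 carried 1 gene symbol (4736 symbols), 308 several and 1426 none. No arrays were identical (highest correlation 0.977), and the labels call replicates biological.

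Here log2(intensity + 16) was quantile normalized, the dimmest 40% of probe sets were left out, and limma 3.58.1 in R 4.3.3 fitted 1 mean per group to 5244 probe sets, with variance following signal and Benjamini-Hochberg adjustment per comparison. Overlap of arrays was read on normalized values unless stated otherwise. Quality measures and differences between probe sets were compared by 2-sided exact permutation tests. Tables, motif searches and figures used Python 3.11.15, numpy 2.4.6, pandas 2.3.3 and matplotlib 3.10.9. In simulated data for ISCH minus CTL (5244 probe sets) the fit recovered 17.9% of 1.5-fold, 67.2% of 2-fold and 98.5% of 4-fold changes, with 8 false calls of 130.

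The members and gene lists were chosen with earlier results of these data known. Every member probe set is given. Up to 6 chaperones with the smallest p among those called in ISCH, the 2 brightest genes of the other lists and the 4 genes most correlated with each member are named by rule, and other genes are said to be chosen after their values were seen. Alternatives were pseudocounts of 1 and 64, no filter or 60% left out, deposited and median-centred values, the replicate block, a fit of the compared groups only, the mean over a gene's probe sets, and each array left out.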

Additional observations from a re-analysis of the deposited data

Results flagged for a closer look

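Single arrays stood apart from the other 4 of their group in 7 of the 54 sets of 5 normalized values, by the gap to the nearest array over the whole range of the group; chance gives about 1 in 20. In IPC_TRI, replicate 5 was lowest for Cryab X60351cds_s_at (gap 0.803 of the range, signal 9084) and for Hspb6 D29960_at (0.807, signal 10299). Replicate 4 of the same group was lowest for Hspb1 rc_AA998683_at (0.911, signal 371.0) and for Hspb1 rc_AA998683_g_at (0.841, signal 4085). In ISCH, replicate 1 was highest for Hspb1 M86389cds_s_at (0.728, signal 41383). In APC, replicate 1 was lowest for Hspb1 rc_AA998683_g_at (0.889, signal 13748), and replicate 3 for Hspb1 rc_AI176658_s_at (0.759, signal 17867). On the deposited scale the next lowest APC signals of these probe sets were 14706 and 18841.

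The difference between a preconditioned group and its trigger was not the difference between ISCH and CTL in 6 tests of the interaction itself. For IPC these were Hspb6 D29960_at (0.71) and Cryaa (-0.75). For APC they were Hspb6 D29960_at (0.69), Cryab M55534mRNA_s_at (0.74), Hspb1 rc_AA998683_at (-1.35) and Cryaa (-0.93). Cryaa alone passed with values as deposited for both kinds of preconditioning. In ISCH against CTL its value was 0.36, and in IPC and APC against their triggers -0.38 and -0.57.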

How the results depend on the processing

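The number of arrays, 5 a group, limits the precision. Over the main probe set of each gene, 1432 alternative values kept direction and side of the threshold, 71 lost a call, 29 gained one and 44 changed sign. For the other probe sets these were 1705, 65, 25 and 100. No value that changed sign was called on either side. Causes were not tested beyond the arrays and scales named. On the values as deposited, Hspb6 lost its calls in ISCH (-0.33) and IPC_TRI (-0.18), in the interactions with IPC (0.29) and APC (0.27) and in the F test (adjusted p = 0.36), Cryab lost IPC_TRI (-0.20), and Hspb1 gained ISCH (0.89), IPC_TRI (0.99) and the IPC interaction (-1.38). With median centring Hspb6 lost ISCH (-0.42), IPC_TRI (-0.39), both interactions (0.64 and 0.47) and the F test (adjusted p = 0.30), Cryab lost IPC_TRI (-0.41) and Cryaa the IPC interaction (-0.38). Without the filter Hspb6 lost IPC_TRI (-0.43) and the APC interaction (0.69). Fitting only the compared groups ended IPC_TRI for Hspb6 (-0.43) and Cryab (-0.55) and the IPC interaction of Hspb6 (0.71), and called Cryab in APC_TRI (-0.41) and in the APC interaction (0.51). With the mean over probe sets Hspb6 lost ISCH (-0.31), both interactions (0.57 and 0.55) and the F test (adjusted p = 0.090), Hspb1 gained ISCH (0.78) and the F test (adjusted p = 0.041), and Cryab gained APC_TRI (-0.53), IPC against IPC_TRI (0.39), APC against APC_TRI (0.49), the APC interaction (0.62) and the F test (adjusted p = 0.0034).

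The replicate numbers gave no clear pairing of the arrays. Over 15 pairs of groups, 0 had every same-numbered correlation over 0.1, and 10 of 30 arrays correlated best with their own number. For IPC and IPC_TRI the same-numbered correlations ran from 0.035 to 0.16, so this check cannot show that the arrays were unpaired. With the replicate block Hspb6 missed the threshold in IPC_TRI (-0.43, adjusted p = 0.056) and in the APC interaction (0.69, adjusted p = 0.050), and no other call of a main probe set changed.

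Further alternatives were chosen after seeing the data. Without IPC_TRI replicate 5 and ISCH replicate 1 together, Hspb6 lost IPC_TRI (-0.28) and the IPC interaction (0.44), Cryab lost IPC_TRI (-0.27), Cryaa lost the IPC interaction (-0.70), and Cryab gained APC_TRI (-0.41), APC against APC_TRI (0.28), the APC interaction (0.52) and the F test (adjusted p = 0.032). With array weights Hspb6 (-0.36) and Cryab (-0.37) lost IPC_TRI and Cryaa the IPC interaction (-0.68), while Cryaa gained ISCH (0.40), IPC against ISCH (-0.57) and APC against ISCH (-0.58), Hspb6 gained APC against ISCH (0.47), and Cryab gained APC_TRI (-0.38), the APC interaction (0.49) and the F test (adjusted p = 0.037). With the spike as a term Hspb6 lost ISCH (-0.35), IPC_TRI (-0.36), both interactions (0.43 and 0.41) and the F test (adjusted p = 0.22), Cryab lost IPC_TRI (-0.52) and Cryaa both interactions (-0.76 and -0.94). With the beta-actin ratio as a covariate Hspb6 lost IPC_TRI (-0.30) and the IPC interaction (0.58), Cryab lost IPC_TRI (-0.33) and Cryaa the IPC interaction (-0.76).

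Leaving out 1 array at a time gave ranges of -0.49 to -0.28 for Hspb6 in IPC_TRI (call lost in 6 of 10), 0.56 to 0.79 for its IPC interaction (2 of 20) and 0.58 to 0.77 for its APC interaction (10 of 20). For Cryab they were -0.68 to -0.27 in IPC_TRI (lost in 5 of 10), 0.11 to 0.52 in IPC against IPC_TRI (gained in 1), 0.34 to 0.74 for the IPC interaction (gained in 1) and an adjusted p of 0.035 to 0.16 in the F test (gained in 2). For Cryaa they were -0.66 to -0.44 in APC against APC_TRI (lost in 1) and -0.83 to -0.64 for the IPC interaction (lost in 4 of 20). For Hspb1 in IPC_TRI they were 0.47 to 0.84 (gained in 2).

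The uncalled values that changed sign were these. Cryab M55534mRNA_s_at changed sign in ISCH against CTL (0.26 as deposited, 0.17 median-centred, 0.020 without both arrays, 0.093 with the spike) and IPC against ISCH (-0.34 as deposited, -0.20 median-centred, -0.063 without both arrays, -0.0012 weighted, -0.12 with the spike, -0.0056 with the actin ratio). Cryab M55534mRNA_s_at also turned in APC against ISCH (-0.25 as deposited, -0.12 median-centred, -0.031 with the spike) and the IPC interaction (-0.20 as deposited). Hspb1 M86389cds_s_at changed sign in ISCH against CTL (-0.16 with the spike) and IPC against ISCH (0.078 without both arrays, 0.048 weighted, 0.27 with the spike). Hspb1 M86389cds_s_at also turned in APC against ISCH (-0.19 as deposited, -0.055 median-centred, -0.016 with the actin ratio) and IPC against IPC_TRI (0.035 with the actin ratio). Hspb1 M86389cds_s_at also turned in the APC interaction (0.069 without both arrays, 0.40 with the spike). Hspb6 rc_AI103838_g_at changed sign in ISCH against CTL (0.034 as deposited, 0.028 without both arrays, 0.18 with the spike) and IPC against CTL (0.021 as deposited, 0.071 median-centred, 0.026 weighted, 0.026 with the spike). Hspb6 rc_AI103838_g_at also turned in IPC against ISCH (-0.013 as deposited, -0.029 without both arrays, -0.16 with the spike) and APC against ISCH (-0.12 with the spike). Hspb6 rc_AI103838_g_at also turned in IPC_TRI against APC_TRI (0.077 without both arrays, 0.0084 weighted) and the difference of the interactions (-0.13 without both arrays, -0.038 weighted, -0.14 with the actin ratio). Cryab changed sign in ISCH against CTL (0.13 as deposited, 0.034 median-centred) and IPC against ISCH (-0.29 as deposited, -0.15 median-centred, -0.014 with the spike). Cryab also turned in APC against ISCH (-0.23 as deposited, -0.088 median-centred) and IPC_TRI against APC_TRI (0.14 without both arrays, 0.010 weighted, 0.038 as the mean). Cryab also turned in the IPC interaction (-0.093 as deposited) and the APC interaction (-0.064 as deposited). Cryab also turned in the difference of the interactions (-0.029 as deposited, -0.17 without both arrays, -0.013 weighted, -0.055 with the actin ratio, -0.10 as the mean). Hspb6 changed sign in APC against CTL (0.025 median-centred, 0.00034 as the mean) and APC_TRI against CTL (0.039 as deposited). Hspb6 also turned in IPC against IPC_TRI (-0.040 as deposited, -0.027 without both arrays, -0.067 with the actin ratio) and APC against APC_TRI (-0.058 as deposited). Hspb6 also turned in the difference of the interactions (-0.14 without both arrays, -0.072 weighted, -0.080 with the actin ratio). Hspb1 rc_AA998683_g_at changed sign in IPC_TRI against CTL (-0.064 weighted, -0.012 with the spike) and APC_TRI against CTL (0.090 as deposited, 0.031 median-centred). Hspb1 rc_AA998683_g_at also turned in IPC against ISCH (0.36 with the spike) and APC against ISCH (0.34 with the spike). Hspb1 rc_AA998683_g_at also turned in IPC_TRI against APC_TRI (-0.056 weighted) and the IPC interaction (0.37 with the spike). Hspb1 rc_AA998683_g_at also turned in the APC interaction (0.52 with the spike) and the difference of the interactions (0.15 weighted). Cryaa changed sign in IPC_TRI against CTL (-0.030 median-centred). Hspb1 changed sign in IPC against ISCH (0.081 with the spike) and APC against ISCH (0.21 with the spike). Hspb1 also turned in IPC against IPC_TRI (0.21 as the mean) and the APC interaction (0.018 with the spike). Hspb1 rc_AA998683_at changed sign in IPC against APC (-0.064 weighted).

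Leaving out 1 array at a time also turned some uncalled values. Cryab M55534mRNA_s_at ranged from -0.11 to 0.020 in ISCH against CTL, from -0.11 to 0.011 in IPC against CTL, from -0.011 to 0.11 in APC against CTL. Cryab M55534mRNA_s_at ranged from -0.063 to 0.055 in IPC against ISCH. Hspb6 rc_AI103838_g_at ranged from -0.085 to 0.028 in ISCH against CTL, from -0.087 to 0.069 in IPC against CTL, from -0.025 to 0.12 in APC against CTL. Hspb6 rc_AI103838_g_at ranged from -0.047 to 0.11 in IPC against ISCH, from -0.14 to 0.024 in IPC against APC, from -0.15 to 0.077 in IPC_TRI against APC_TRI. Hspb6 rc_AI103838_g_at ranged from -0.13 to 0.095 in the difference of the interactions. Hspb1 M86389cds_s_at ranged from -0.031 to 0.29 in IPC against CTL, from -0.0077 to 0.32 in APC_TRI against CTL, from -0.16 to 0.078 in IPC against ISCH. Hspb1 M86389cds_s_at ranged from -0.22 to 0.10 in the APC interaction. Hspb1 rc_AA998683_at ranged from -0.32 to 0.27 in IPC_TRI against CTL, from -0.0028 to 0.28 in APC against APC_TRI, from -0.10 to 0.23 in IPC against APC. Hspb1 rc_AA998683_g_at ranged from -0.055 to 0.55 in IPC_TRI against CTL, from -0.26 to 0.12 in APC_TRI against CTL, from -0.19 to 0.0024 in IPC against ISCH. Hspb1 rc_AA998683_g_at ranged from -0.027 to 0.16 in IPC against APC, from -0.28 to 0.10 in the APC interaction, from -0.53 to 0.015 in the difference of the interactions. Hspb1 ranged from -0.075 to 0.032 in APC against ISCH. Hspb6 ranged from -0.027 to 0.19 in IPC against IPC_TRI, from -0.14 to 0.082 in the difference of the interactions. Cryaa ranged from -0.063 to 0.13 in IPC against APC. Cryab ranged from -0.079 to 0.020 in IPC against APC, from -0.27 to 0.14 in IPC_TRI against APC_TRI, from -0.17 to 0.24 in the difference of the interactions.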

Other observations

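The genes whose signals followed each member most closely over the 30 arrays were taken by Pearson correlation of normalized log2 values among 3151 other genes. The arrays share 6 groups and 1 normalization, so these values are descriptions. For Cryab (X60351cds_s_at) they were Pnrc1, a nuclear receptor coactivator (0.88), Rab3a, a small GTPase (0.88), Sec31a, a coat protein of export vesicles (0.86), and Rbbp7, a histone-binding protein (0.85). For Cryaa they were Colq, the collagen tail of acetylcholinesterase (0.78), Padi2, a peptidylarginine deiminase (0.72), Ift46, a protein of transport in cilia (0.72), and Nfix, a transcription factor (0.71). For Hspb6 (D29960_at) they were Kcnq1, a cardiac potassium channel (0.81), Jtb (0.75), Map2k1, a MAP kinase kinase (0.75), and Ryr2, the calcium release channel of heart muscle (0.74). Those of Hspb1 (rc_AI176658_s_at) were lower, with Frmd6 at 0.59, Gnptg at 0.55, Use1 at 0.55 and C1qb, a complement component, at 0.53.

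Hspa1a, the inducible HSP70, was among the chaperones that fell in APC_TRI. It had mean signals of 5371 ± 2900.1 in CTL, 23273 ± 5043 in ISCH, 17018 ± 1630.5 in IPC, 16696 ± 3305 in APC, 5199.6 ± 2364 in IPC_TRI and 2093 ± 531 in APC_TRI (SD, n = 5). The APC_TRI arrays ran from 1245 to 2610, and those of CTL from 2363 to 10208, so the groups overlapped on the deposited scale.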
